A study of Mus musculus with 4 samples.

Results

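Wls encodes Wntless, a multi-pass membrane protein that escorts lipid-modified Wnt ligands from the secretory pathway to the cell surface. It was followed here as 1 of the 31253 genes in the count tables of tumor-infiltrating leukocytes. Members were found by the gene symbol, which a single row carried (ENSMUSG00000028173, chromosome 3, 159839672 to 159938664 on the plus strand of mm10). Wls was picked for its large ratio between genotypes in CD8 T cells of these same mice, so its own levels and ratios are a description and carry no test.

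Live CD45+ cells were sorted from tumor-bearing hemispheres of C57Bl/6 mice on day 14 after implantation of CT2a, a mouse glioma cell line. The groups were 4 WT mice and 4 CaMKK2 KO mice, which lack the calcium/calmodulin-dependent kinase kinase 2 in host cells, while both groups carried the same implanted tumor line. The mice of a genotype received 4 different hashtag antibodies and were pooled on 1 channel of the 10x 3' platform, so genotype and channel cannot be told apart. After filtering, 5046 WT cells (median 12597 UMIs, unique molecular identifiers, each 1 captured transcript) and 5630 CaMKK2 KO cells (median 11457 UMIs) remained, with 1006 to 1661 cells and 11879854 to 20346223 UMIs per mouse.

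Wnt ligands are acylated by the enzyme Porcn and cannot leave the producing cell without Wntless, which is then returned from the surface to the Golgi by the retromer complex. Cells that take up a Wnt signal do so through Frizzled receptors and Lrp co-receptors, which stabilise beta-catenin so that it can act with TCF and LEF factors in the nucleus. In T cells the factors Tcf7 and Lef1 are best known as genes of naive and stem-like cells.

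Cells were placed in the immune class with the largest share of its marker genes detected, as described with the processing. All 7 genes of the T-cell list were detected and summed to 4400 to 7169 CPM in the T cells of WT mice. In the T cells of CaMKK2 KO mice they summed to 7244 to 8156 CPM. The cells were gated on these same genes, so their presence is no separate check of the label. CPM, counts per 1000000, are UMIs of a gene relative to all UMIs of that class in that mouse. The part of these higher T-cell markers in the Wls values was not tested. The 8 macrophage genes, on which the macrophages were likewise gated, were also all detected. They were at 16647 to 17888 CPM in the macrophages of WT mice and 11667 to 16763 CPM in those of the knockout. Camkk2 was at 27.6 to 39.0 CPM over all cells of the WT mice and at 13.3 to 22.6 CPM in the CaMKK2 KO mice. It was lower in CaMKK2 KO macrophages (log2 fold change -1.07, SE 0.11, adjusted p = 0.000898, edgeR quasi-likelihood test with Benjamini-Hochberg adjustment). The deleted part of the gene is not given in the sources used here, so the remaining Camkk2 reads say nothing about the allele. The 2 libraries shared 42 barcodes, of which 11 cells per library passed the filters.

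In T cells, Wls stood between 44.7 and 68.0 CPM in the WT mice and between 232 and 392 CPM in the CaMKK2 KO mice. The means were 51.5 ± 11.1 CPM (SD, n = 4) and 323 ± 66.3 CPM (n = 4), a ratio of 6.27. Every CaMKK2 KO mouse lay above every WT mouse. Of the 7146 genes with at least 200 UMIs in T cells, 8.4% showed this same separation, and Wls held place 8 by the size of the ratio.

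The CD8 T cells, defined by a Cd8a or Cd8b1 UMI without a Cd4 UMI, comprised 395 cells of WT mice and 346 of the knockout. Their Wls level was 71.2, 31.9, 37.1 and 33.0 CPM in WT mice 1 to 4, and 424, 281, 348 and 449 CPM in CaMKK2 KO mice 1 to 4. The lowest CaMKK2 KO mouse was thus well above the highest WT mouse, which itself stood apart from the other 3 and had 17 CD8 T cells. The means of 43.3 ± 18.7 and 375 ± 76.1 CPM (SD, n = 4 each) gave a ratio of 8.68. A full separation in this direction was seen for 7.69% of the 5254 genes tested in CD8 T cells, and Wls held place 3 by ratio among them. Markers of other cells also moved there. The macrophage genes were at 88.0 to 152 CPM in CaMKK2 KO mice against 168 to 184 CPM in WT, and the migratory dendritic cell genes at 5.78 to 18.7 against 25.9 to 47.5 CPM. The non-classical monocyte genes were higher, at 228 to 256 against 149 to 218 CPM. So were the 6 marker genes of gamma-delta T cells, at 7.57 to 42.0 against 2.77 to 6.47 CPM. The part of these markers in the Wls values was not tested.

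Regulatory T cells, defined by a Foxp3 UMI, had the highest WT level of all classes. Wls was at 141, 117, 79.9 and 96.8 CPM in WT mice 1 to 4 and at 318, 336, 290 and 325 CPM in the CaMKK2 KO mice. WT mouse 1, the highest of its group, had 7 regulatory T cells with 5 Wls UMIs. The CaMKK2 KO mice were close to one another and all above the WT mice. The ratio of the means, 109 ± 26.5 to 317 ± 19.4 CPM (SD, n = 4 each), was 2.92, and 4.91% of 2137 genes separated in this way in regulatory T cells. The 4 regulatory T-cell genes were lower in CaMKK2 KO mice, at 3882 to 4220 CPM against 4447 to 5911 CPM in WT. The NK genes were at 143 to 383 CPM against 0 to 145 CPM, and the part of these markers in the Wls values was not tested.

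Regulatory and CD8 T cells can be compared within a mouse. In each of the 4 WT mice, Wls was lower in CD8 than in regulatory T cells, by 65.4 ± 17.5 CPM (SD). WT mouse 1 entered this with 17 CD8 and 7 regulatory T cells. Within the CaMKK2 KO mice it was higher in CD8 T cells in 3 of 4, by 58.3 ± 80.2 CPM (SD), a difference smaller than its spread. Whether the genotype ratio differs between the subsets was not tested. Other CD4 T cells were few, with 41 WT cells in the 3 mice that could be used and 231 CaMKK2 KO cells. They held 70.2 ± 38.2 CPM of Wls in WT (SD, n = 3) and 231 ± 74.9 CPM in CaMKK2 KO mice (n = 4), again without overlap, as did 10.7% of 1822 genes.

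NK cells gave the largest difference in level. Wls was at 37.0, 37.2, 30.9 and 28.6 CPM in WT mice 1 to 4, below the T cells of each mouse. In the CaMKK2 KO mice it was at 572, 557, 476 and 563 CPM, above the T cells of each mouse. The means of 33.4 ± 4.34 and 542 ± 44.3 CPM (SD, n = 4 each) differed 16.2-fold. The NK genes themselves also stood higher in the NK cells of CaMKK2 KO mice, at 3903 to 5448 CPM against 2889 to 3824 CPM, as did the classical monocyte genes, at 1360 to 1536 against 754 to 1038 CPM. The macrophage genes were lower, at 81.8 to 119 against 136 to 172 CPM, and the part of these markers in the Wls values was not tested. In NK cells 7.98% of 6627 genes separated in this direction, and only 4 of those tested had a larger ratio than Wls, which took place 5.

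In macrophages the difference was smaller and the CaMKK2 KO mice were spread widely. Wls was at 45.9, 48.1, 45.8 and 54.4 CPM in WT mice 1 to 4, and at 160, 70.4, 148 and 83.9 CPM in CaMKK2 KO mice 1 to 4. Mice 1 and 3 of the CaMKK2 KO group were high and mice 2 and 4 were nearer to the WT range, although none overlapped it. The means were 48.6 ± 4.05 and 115 ± 44.8 CPM (SD, n = 4 each), a ratio of 2.38. Of 9409 genes tested in macrophages, 4.14% separated in this way, and Wls came at place 108 by ratio.

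Markers of other cells also moved in the macrophages. The macrophages of CaMKK2 KO mice carried more of the 6 classical monocyte genes, 1720 to 4796 CPM against 570 to 1771 CPM in WT. They carried less of the 7 microglia genes, 517 to 867 against 956 to 1273 CPM, and of the 7 non-classical monocyte genes, 72.0 to 106 against 129 to 206 CPM, and the part of these shifts in the Wls values was not tested. Split by the number of monocyte genes detected, the ratio was 2.91 in macrophages with 0 or 1, 2.27 with 2 or 3, and 2.32 with 4 or more, beside 2.38 over all macrophages. The band with 0 or 1 held 16 and 11 cells in CaMKK2 KO mice 2 and 4. The 7 T-cell genes summed to 13.1 to 16.6 CPM in WT and 24.9 to 33.2 CPM in CaMKK2 KO macrophages, and the 7 NK genes to 18.6 to 36.0 and 40.6 to 90.3 CPM, with all genes of both lists detected. At the ratio of Wls to these markers in the T cells of the same CaMKK2 KO mouse, that T-cell signal would go with at most 1.45 CPM of Wls. The NK signal, by the NK cells, would go with at most 9.64 CPM. These values take each source alone and assume its ratio, and the part of such signal in the Wls values was not tested.

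The level in B cells of CaMKK2 KO mice, 113 ± 15.6 CPM (SD, n = 4), was about that of the macrophages. In WT mice it was 25.2 ± 18.9 CPM (n = 4), read from 13 Wls UMIs in 169 cells. The genotypes did not overlap, as for 6.35% of the 1134 genes with at least 200 UMIs in B cells, a minimum that Wls itself did not reach there. The log2 ratio of 2.16 became 2.75 without WT mouse 4. Macrophages exceeded the B cells of the same mouse in 4 of 4 WT mice but in 2 of 4 CaMKK2 KO mice, with a mean difference of 2.79 ± 43.4 CPM (SD). With the B-cell CPM of the same mouse subtracted, the macrophage log2 ratio turned from 1.25 to -3.06. The ratio rose from 2.65 to 3.00 in T cells and from 4.02 to 5.70 in NK cells. This subtraction was not scaled to the UMIs per cell, of which macrophages hold more than B cells. Per cell, B cells held 0.105 (WT) and 0.635 (CaMKK2 KO) Wls UMIs, and macrophages 0.825 and 1.95. Whether free RNA has a part in these values was not tested.

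Microglia, the resident macrophages of the brain, were the class with many cells in which the genotypes overlapped. Wls was at 67.3, 82.4, 98.1 and 89.0 CPM in WT mice 1 to 4 and at 95.1, 91.8, 111 and 101 CPM in CaMKK2 KO mice 1 to 4. The means of 84.2 ± 13.0 and 99.8 ± 8.53 CPM (SD, n = 4 each) had a ratio of 1.19. Among 4483 genes tested in microglia 2.41% separated upward, Wls not among them, and the median log2 ratio of all those genes was -0.11.

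Classical monocytes followed the macrophages, with 19.4 to 36.5 CPM for the WT mice and 59.3 to 170 CPM for the CaMKK2 KO mice. As in macrophages, mice 2 and 4 were the lowest of the CaMKK2 KO group. The ratio was 3.49, with no overlap, which held for 5.2% of 7738 genes. Non-classical monocytes had 44.0 ± 20.2 CPM in 3 WT mice and 153 ± 57.4 CPM in 4 CaMKK2 KO mice (SD), also separated, as were 4.72% of 1483 genes. The T-cell genes in classical monocytes summed to 14.1 to 38.5 CPM (WT) and 34.5 to 47.7 CPM (CaMKK2 KO), and at the ratio of the T cells would go with at most 2.17 CPM of Wls. The NK genes there summed to 28.3 to 144 CPM (WT) and 71.0 to 127 CPM (CaMKK2 KO). At the ratio of the NK cells they would go with 8.73 to 13.9 CPM of Wls in the CaMKK2 KO mice, with 13.6 CPM in mouse 4, whose measured level was 61.5 CPM. Here too each source was taken alone, and the part of such signal in the Wls values was not tested. The 7 non-classical monocyte genes were lower in the classical monocytes of CaMKK2 KO mice, at 162 to 257 against 414 to 487 CPM. The part of this shift in the Wls values was not tested either.

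Dendritic cells differed by kind. In DC2, the conventional type that presents antigen mainly to CD4 T cells, Wls was at 16.1 to 26.3 CPM over 4 WT mice and at 268, 378 and 505 CPM in the 3 CaMKK2 KO mice with at least 5 such cells. Its ratio of 19.2 was the largest of the 2203 genes tested in DC2, of which 7.54% separated in this direction. The class is loosely bounded, since 77.2% of its cells fell in the DC2 cluster and 34.2% of that cluster's cells were gated as DC2, and with classes from clusters the log2 ratio was 3.95 beside 4.26. In DC1, the cross-presenting type, the WT mice held 5 Wls UMIs in 73 cells and the 3 CaMKK2 KO mice held 160 UMIs in 31 cells. The pooled ratio was 68.2 with a 95% exact interval of 28.6 to 213, which covers counting error only, and full separation was seen for 7.38% of 1559 genes with at least 200 UMIs in DC1.

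Plasmacytoid dendritic cells, the main producers of type I interferon, had no Wls UMI in 41 cells of 3 WT mice. A floor of 3 counts over that group is 6.17 CPM, against 196 CPM in 44 cells of 3 CaMKK2 KO mice, 31.8-fold above the floor. The floor covers counting error only, and the CaMKK2 KO mice ran from 120 to 234 CPM. For comparison, 8.08% of 755 genes separated upward in plasmacytoid dendritic cells, and the 200 UMIs needed to be counted among them were reached by Wls neither there nor in DC1.

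Migratory dendritic cells, which have matured and express Ccr7, were the exception. They had 4 Wls UMIs in 75 WT cells and 11 in 108 CaMKK2 KO cells. The level was 6.43 ± 8.41 CPM in 3 WT mice and 9.75 ± 8.29 CPM in 4 CaMKK2 KO mice (SD), and the genotypes overlapped.

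**Figure D1:**
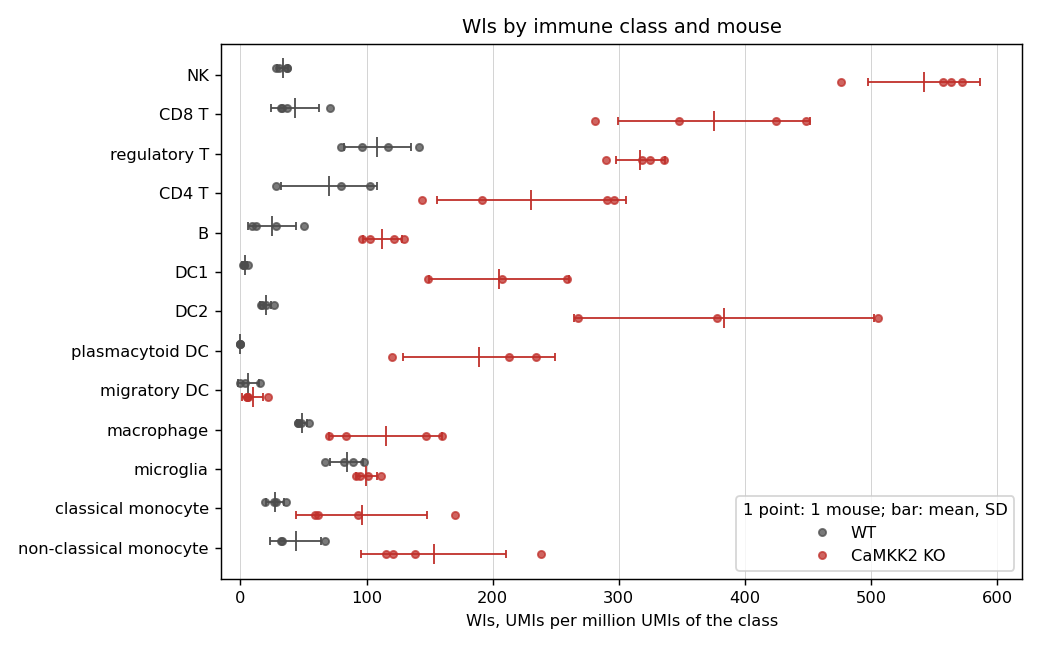
Wls level in CPM of the class (x axis) for 13 classes, with 1 point per mouse having at least 5 cells of the class, a vertical tick at the mean and a bar of 1 SD. The CaMKK2 KO points lie to the right of the WT points in all classes drawn except microglia and migratory dendritic cells, farthest in NK cells.

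The order of the classes therefore differed between genotypes. In WT mice, regulatory T cells (109 CPM), microglia (84.2 CPM) and CD4 T cells (70.2 CPM) led, followed by macrophages, non-classical monocytes, CD8 T cells, NK cells, classical monocytes, B cells and DC2, and neighbours in this order overlapped in their mice down to DC2. In CaMKK2 KO mice, NK cells came first, then DC2, CD8 T cells, regulatory T cells, CD4 T cells, DC1, plasmacytoid dendritic cells, non-classical monocytes, macrophages, B cells, microglia and classical monocytes. There too each class overlapped its neighbour, and the single gap was that between classical monocytes and migratory dendritic cells, which came last.

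The cells that supplied the Wls transcripts shifted accordingly. Macrophages held 52.3% of the 2884 Wls UMIs of WT mice and were 36.1% of the cells. In CaMKK2 KO mice they held 21.1% of 13397 Wls UMIs and were 23.4% of the cells. NK cells, 14.7% of the CaMKK2 KO cells, held 31.5% of the UMIs there, and T cells, 16.0% of the cells, held 22.8%. In WT mice the same shares of UMIs were 7.52% for NK cells and 11.1% for T cells.

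Both the share of cells with Wls and the number of copies per cell were higher in CaMKK2 KO lymphocytes. Before depths were matched, 28.1% of WT CD8 T cells (median 10719 UMIs) and 92.8% of CaMKK2 KO CD8 T cells (median 12162 UMIs) had a Wls UMI. With each cell thinned to 3000 UMIs, these shares were 9.9% (95% exact binomial interval 7.13 to 13.3) and 66.0% (60.7 to 71.0), over 394 and 344 cells. The thinning left out 1 WT and 2 CaMKK2 KO CD8 T cells. At least 3 Wls UMIs were seen in 16.3% of the thinned CaMKK2 KO CD8 T cells and in none of the WT cells, where the most was 2.

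At this same depth, 74.4% (71.2 to 77.4) of CaMKK2 KO NK cells had a Wls UMI against 9.84% (7.50 to 12.6) in WT, although the CaMKK2 KO NK cells were shallower before thinning, at a median of 6533 against 8618 UMIs. In macrophages the thinned shares were 13.1% (11.5 to 14.7) and 28.7% (26.2 to 31.2), and in microglia 21.6% (17.0 to 26.7) and 22.3% (15.9 to 29.9). Migratory dendritic cells, with median depths of 9025 and 10819 UMIs, gave 1.41% (0.04 to 7.60) and 0.98% (0.02 to 5.34). Without thinning their shares were 4.0% and 10.2%. B cells gave 5.07% (2.06 to 10.2) and 21.2% (15.7 to 27.7) at the same depth. Which class shows the level of cells without Wls was not tested. All intervals cover counting error only, since cells of a mouse and of a channel are not independent.

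**Figure D2:**
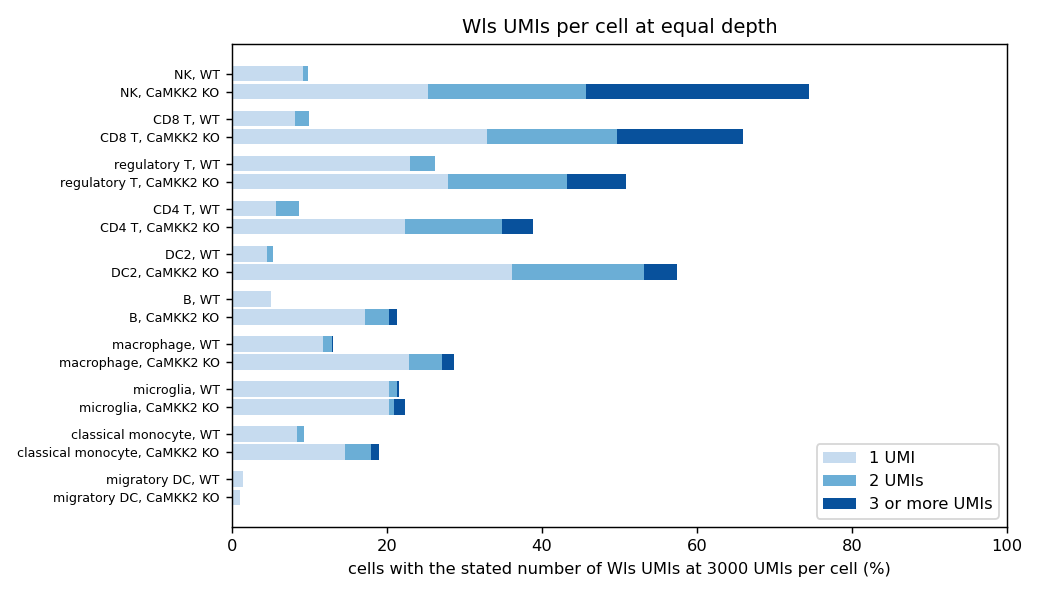
Share of cells in percent (x axis) with 1, 2 or at least 3 Wls UMIs after each cell was thinned to 3000 UMIs, for 10 classes and both genotypes, cells of all mice pooled. NK and CD8 T cells of CaMKK2 KO mice had 3 or more UMIs in 28.7% and 16.3% of cells, while no WT cell of these classes did.

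Cycling T cells were those with at least 2 of Mki67, Top2a, Birc5 and Cdk1. They had less Wls relative to all UMIs than other T cells in 4 of 4 CaMKK2 KO mice, by 112 ± 74.5 CPM (SD). In WT this held in 1 of 3 usable mice, with a mean difference of 1.79 ± 24.1 CPM (SD). Counted per cell in the CaMKK2 KO mice, the order was different. The cycling cells of CaMKK2 KO mice 1 to 4 held 3.76, 3.10, 4.34 and 5.22 Wls UMIs per cell, against 4.30, 2.50, 3.48 and 2.33 in the others, which is more in 3 of 4 mice. The ratio between genotypes was 5.46 in cycling T cells, with 3 usable WT mice, and 6.82 in the rest.

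**Figure D3:**
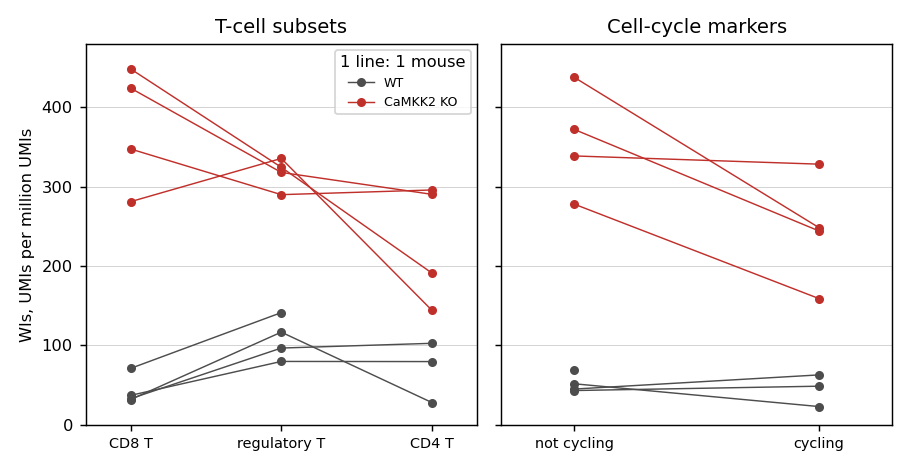
Wls level in CPM (y axis) in T-cell subsets and in T cells without and with cell-cycle markers, with 1 line per mouse. The CaMKK2 KO lines fall from left to right in the panel of cell-cycle markers in 4 of 4 mice, and all CaMKK2 KO points are above all WT points within each subset.

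No other gene of a list of Wnt pathway genes was called in T cells. The list, of ligands, secretion and recycling genes, receptors, modulators, cytoplasmic relay proteins, nuclear factors and commonly used target genes, was read from the fits over all genes. Of 26 list members other than Wls with at least 200 UMIs in T cells, none passed the threshold. An unadjusted p under 0.05 was seen for 1 of them and for 1235 of all 7146 genes. The edgeR test called 1.75% of all genes in T cells, 125 of 7146. These were 76 higher and 49 lower genes in the knockout, and 47 and 91 under TMM scaling. A count of 0 among 26 members is near that share of 1.75%. The list's median log2 ratio was 0.05, beside 0.08 for all genes tested. That of Wls, which was picked for its ratio in these mice, was 2.65. In CD8 T cells none of 22 members was called, beside 1.52% of all genes. There 2 members and 917 of all 5254 genes had an unadjusted p under 0.05. In regulatory T cells none of 10 was called, beside 1.03% of all genes. At the same unadjusted level were 0 of these members and 334 of all 2137 genes. The CD8 calls were 42 higher and 38 lower, and 28 and 45 under TMM scaling.

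None of the genes that work with Wntless in secretion and recycling was called in the 7 classes tested. In these classes 1.03% to 3.12% of all genes were called. Of the secretion and recycling genes, 7 could be tested in regulatory T cells, 9 in microglia and 10 in each of the other classes. Having none called among so few genes is near those shares and is no finding about them. The 10 secretion and recycling genes tested in T cells were the cargo receptors Tmed2, Tmed5 and Tmed10, the coat GTPases Sar1a and Sar1b, and the retromer genes Vps26a, Vps26b, Vps29, Vps35 and Snx3, which bring Wntless back from the endosome. Their log2 ratios in T cells ran from -0.15 (Tmed5) to 0.31 (Sar1b), none called, with a median of 0.18 beside 0.08 for all genes tested. Every CaMKK2 KO mouse lay above every WT mouse for 3 of these 10, beside 8.4% of all genes tested in T cells. Porcn, which acylates the ligands, had 69 UMIs in WT and 37 in CaMKK2 KO macrophages, at 1.90 to 2.48 and 1.10 to 2.26 CPM over the mice, too few to be tested.

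Wnt ligands themselves were scarce. All 19 were in the files, and none reached 200 UMIs over all cells of either genotype. Wnt6 had 75 UMIs in WT and 153 in CaMKK2 KO cells, most of them in macrophages, and Wnt4 had 79 and 100. Wnt10b had 32 and 28 UMIs, 75% of them in T cells. No UMI was seen for 5 ligands in WT and for 7 in CaMKK2 KO cells.

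Among receptors and nuclear factors, the co-receptor Lrp6 was the only receptor gene with 200 UMIs in T cells, at 31.9 ± 10.7 and 22.6 ± 0.98 CPM (WT and CaMKK2 KO, SD, n = 4 each), and was not called. Lef1 was at 49.4 ± 25.0 and 34.0 ± 13.3 CPM, and Tcf7 at 58.7 ± 21.2 and 46.3 ± 35.3 CPM in T cells, neither called. In CD8 T cells Tcf7 had a log2 fold change of -1.02 (SE 0.45, adjusted p = 0.252, edgeR quasi-likelihood test), with adjusted p between 0.00783 and 0.381 over the alternatives.

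In NK cells 3.12% of all genes were called, 143 higher and 64 lower, and 90 and 72 under TMM scaling. None of 26 list members was called there. An unadjusted p under 0.05 was seen for 3 of them and for 1254 of all 6627 genes. The nearest was the target gene Myc, with a log2 fold change of -0.66 (SE 0.18, adjusted p = 0.0688), which DESeq2 and the fit on all detected genes did call, as did 2 of 8 fits without a mouse, those without CaMKK2 KO mouse 1 or 3.

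In macrophages 2.64% of all genes tested were called, 98 higher and 150 lower, which became 116 and 91 under TMM scaling. Of 34 list members 1 was called, a count near that share and no finding about the list. An unadjusted p under 0.05 was seen for 11 of the 34 and for 2059 of all 9409 genes. Ctnnb1, which encodes beta-catenin, fell from 96.7 to 105 CPM in the WT mice to 74.3 to 83.6 CPM in the CaMKK2 KO mice (log2 fold change -0.36, SE 0.07, adjusted p = 0.0359, edgeR quasi-likelihood test). The call held in 6 of 9 other settings, not under TMM scaling, and in 1 of 8 fits that left out a mouse, that without CaMKK2 KO mouse 1, and their adjusted p ran from 0.0437 to 0.106. Tcf7l2, a nuclear partner of beta-catenin, was at 64.7 ± 12.3 and 96.1 ± 5.86 CPM (SD, n = 4 each), with an adjusted p of 0.0563 that passed the threshold in 4 of 9 other settings. The nuclear list genes Tle1 and Bcl9 were not called either. Their log2 fold changes were -1.19 (SE 0.29, adjusted p = 0.0637) and 0.56 (SE 0.15, adjusted p = 0.0775, same edgeR test). They passed in 3 and 1 of 9 other settings. None of 20 members was called in microglia, where 1.38% of all genes were, 25 higher and 37 lower, and 27 and 19 under TMM scaling. An unadjusted p under 0.05 was seen there for 2 members and for 733 of all 4483 genes. None of 32 was called in classical monocytes, where 1.59% of all genes were. There 7 members and 1197 of all 7738 genes had an unadjusted p under 0.05.

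**Figure D4:**
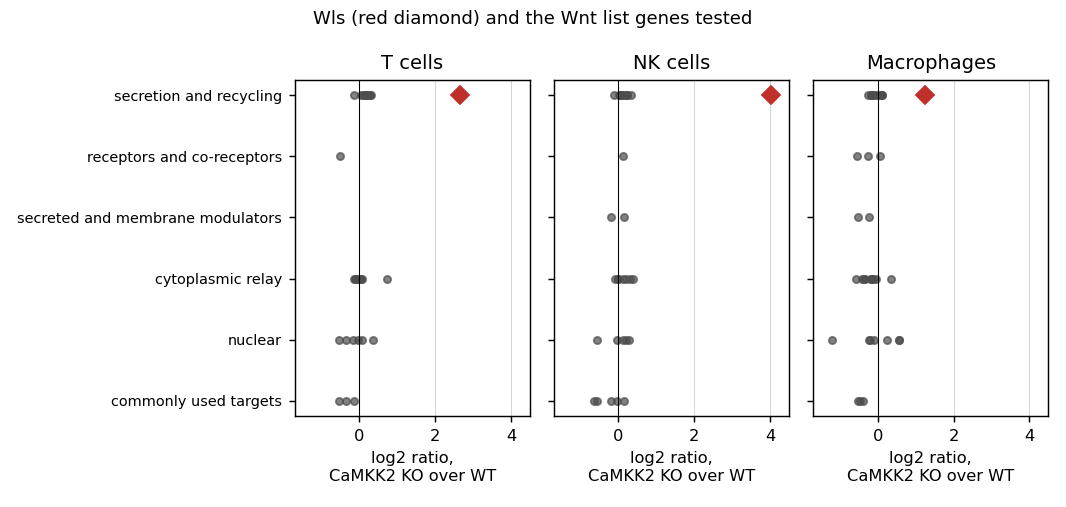
Log2 ratio of the mean level in CaMKK2 KO over WT mice (x axis) for each Wnt list gene with at least 200 UMIs, by group of the list, in T cells, NK cells and macrophages. Wls, the red diamond, stands at 2.65, 4.02 and 1.25, and the other genes lie between -1.19 and 0.73. A target gene that is also a factor is drawn in both groups.

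Wls was next compared with other genes cell by cell, first across the CD8 T cells of each CaMKK2 KO mouse. Pearson correlations of log-scaled values were taken within each mouse and averaged over the 4 mice, for 7736 genes seen in at least 10% of 346 cells. The highest mean was 0.39 for the chemokine gene Ccl5 (0.23 to 0.55 over mice), then 0.36 for Fgl2, a secreted fibrinogen-like protein, and 0.31 for Gm36723, a predicted gene. The checkpoint receptor gene Lag3 (0.30), B2m (0.29), the light chain of MHC class I, and Ptprc (0.28), which encodes CD45, came next. Malat1, a nuclear non-coding RNA, the cytotoxic granule gene Nkg7, Klrc1, which encodes the inhibitory receptor NKG2A, and the lysosomal gene Laptm5 completed the highest 10, at 0.28 to 0.26.

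The lowest correlations in the same cells were as follows. Pclaf, a replication clamp partner, was at -0.30, the centromere gene Cenpm at -0.29, and the ribosomal genes Rps2, Rpl22l1 and Rpsa at -0.29, -0.29 and -0.28. Thinning to 3000 UMIs lowered these values. Ccl5 then stood at 0.29 and Fgl2 at 0.25, and Cenpm at -0.05. The points share a library and differ in depth, and no p is given. In WT CD8 T cells, where most cells have 0 or 1 Wls UMI, the highest mean was 0.23, for Wipf2, over 3 mice with at least 20 cells, and at equal depth the 10 leading genes there ranged from -0.03 to 0.15, which is no finding. The highest 10 after Wipf2 were Abcd3, Tapt1, Nrp1, Plscr1, Ywhaq, Nipal3, Lyrm2, Acp2 and Ramp1, and the lowest 5 were Slc30a5, Leprotl1, Rer1, Prdx6 and Mrpl57.

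In macrophages the leading correlations were lower. In CaMKK2 KO macrophages the highest were Cd72 (0.20), an inhibitory lectin-like receptor, Tmem176b (0.20), the cytokine receptor gene Lifr (0.19), the GTPase regulator Dock10 (0.19) and the inhibitory lectin gene Clec12a (0.19), followed by Celf2, Serinc3, Pou2f2, Clec4b1 and Tmem176a at 0.18 to 0.16. The lowest were the ferritin gene Fth1 (-0.19), the galectin-3 gene Lgals3 (-0.19), the glycolytic gene Pgam1 (-0.18), Srgn (-0.17) and the glycolytic gene Pkm (-0.17). The sign was the same in each of 4 mice for these 15 genes. They were picked by their mean over those same mice, so the shared sign is no separate test. At equal depth the highest genes ranged from 0.04 (Celf2) to 0.10 (Lifr), with Cd72 at 0.09. The lowest then ranged from -0.15 (Fth1) to -0.06 (Srgn). These weak values are a description.

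In WT macrophages the values were lower still. The highest were Ehd4 (0.16), the cathepsin gene Ctsb (0.14), Ms4a7 (0.13), the lipid receptor gene Trem2 (0.13) and Grn (0.13), which encodes progranulin, before Uggt1, Fyb, Itm2b, Rap2b and Nrp1 at 0.12 to 0.11. The lowest were the glycolytic genes Ldha (-0.13), Aldoa (-0.12), Eno1 (-0.12) and Pkm (-0.12) and the adhesion gene Emb (-0.12). Pkm was thus among the lowest 5 in both genotypes. At equal depth the 10 highest genes ranged from 0.001 (Uggt1) to 0.08 (Ctsb), with Ehd4 at 0.04, and the lowest 5 from -0.09 (Aldoa) to -0.04 (Ldha), so these weak values are no finding.

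**Figure D5:**
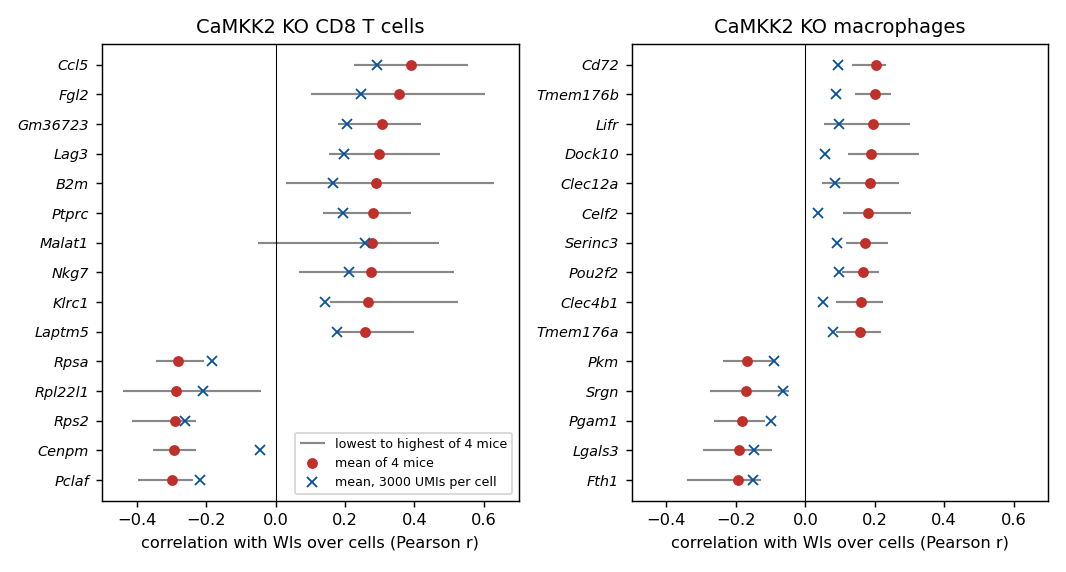
Pearson correlation with Wls over cells (x axis) for the 10 highest and 5 lowest genes in CaMKK2 KO CD8 T cells and macrophages, as the mean over 4 mice, the range over mice and the mean after thinning to 3000 UMIs per cell. Ccl5 leads at 0.39 in CD8 T cells and Cd72 at 0.20 in macrophages, and thinning moves the points toward 0.

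Likeness was also read across classes, from log2(CPM + 1) of the class means over 13 classes of a genotype, among genes of at least 200 UMIs. In CaMKK2 KO mice the genes most like Wls were Etfb (r = 0.95), which encodes an electron transfer flavoprotein subunit, Hint1 (0.93), Lrmp (0.92), Tmem223 (0.92) and Ydjc (0.91), out of 10291. In WT mice they were Mast2 (0.93), the diacylglycerol kinase gene Dgkz (0.92), Cd84 (0.92), Nutf2-ps1 (0.91) and Poll (0.91), out of 10330. The lists have no gene in common, and with 13 points chosen from so many genes these values are a description.

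The annotation (GENCODE M21, mm10) gives Wls 7 transcripts, of which Wls-201 with 12 exons and Wls-205 with 13 exons are protein-coding. The 3' counts do not tell them apart. No annotated gene starts beyond Wls on chromosome 3 outside its own span, and the pair of genes annotated inside it, Gm43307 on the same strand and the snRNA gene Gm23941 on the other, are not among the genes of the files. On the other side, the nearest genes that the files hold are Rpe65, which ends 214351 bp before Wls, and Depdc1a, 309717 bp away, then Gm20752, Lrrc7 and B230334C09Rik, with the pseudogenes Gm43655 and Gm9423, not among the genes of the files, lying between them. None of these 5 had the 200 UMIs needed in any of the 7 classes tested. Camkk2 lies on chromosome 5 (122731170 to 122779409, minus strand).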

How the data were processed

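Per the labels and the study's methods, the authors prepared libraries with the 10x Chromium 3' v3.1 kit with hashtag antibodies, and the submitters' processing notes name bcl2fastq 2.20, Cell Ranger 4.0.0, STAR 2.7.5c and mm10. The deposited values are raw UMI counts per gene and barcode for 6689 WT and 7271 CaMKK2 KO barcodes, without the authors' later filters.

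Hashtags were assigned to mice with HTODemux (Seurat 5.3.0, quantile 0.99), leaving 5974 and 6696 single-mouse barcodes. Cells needed 200 genes, and isOutlier (scuttle 1.12.0) removed 744 and 922 cells that lay over 3 median absolute deviations away in genes, total UMIs or the mt- share. The study's mitochondrial gene list was not used here. Scrublet (scanpy 1.11.5) marked 11 and 33 cells by itself, too few to have worked, so the 227 and 174 cells with the highest scores were removed instead, the number of same-mouse doublets expected from the hashtag doublets.

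A cell took the class with the largest share of its markers detected, if at least 0.5 and without a tie. This way of scoring was decided with the data in view. Classes matched Leiden clusters (resolution 2) in 97.7% to 100% of T, NK and B cells, 86.0% of microglia, 84.1% of macrophages, 80.6% of classical and 68.8% of non-classical monocytes, and 77.2% to 85.8% of the dendritic cell classes. Each cluster was named by the most common gated class of its cells, so this match is partly built in. UMIs were summed per mouse and class, mice with fewer than 5 cells of a class being left out, and edgeR 4.0.16 fitted genotype as the only term by quasi-likelihood (library size, the class total; minimum 200 UMIs a gene; Benjamini-Hochberg threshold 0.05). The study tested single cells, which are not replicates, so sums per mouse took their place. The hashtags mark separate mice, and the p-values measure the spread between the mice of 1 channel per genotype.

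Wls, the marker lists and the Wnt list were chosen with earlier results of these data known. Of the Wnt list, Tiki2 was not matched. A further division of the T cells by marker genes is not reported here. Named genes were Wls and Camkk2, called Wnt list members, secretion genes, the ligands, receptors and TCF/LEF factors with counts, the 10 highest and 5 lowest correlations, the 5 most alike genes and 5 neighbours on each side. Myc, Tcf7l2, Tle1, Bcl9 and the per-ligand counts were added after their values were seen. Gene positions came from GENCODE M21, which holds 31107 of the 31253 identifiers. The edgeR script was tested on simulated data. Alternatives were TMM scaling, DESeq2 1.42.0, minimums of 50 and 1 UMI, outlying or high-scoring cells kept, classes from clusters, mean CPM over cells, subtraction of the B-cell level and each mouse left out. Removal of shared barcodes, a stricter lead of 0.2 between classes, keeping high-scoring cells in the counts of calls and subtraction of the migratory dendritic cell level were added after the data were seen. Other software was R 4.3.3, Python 3.11.15, numpy 2.4.6, pandas 2.3.3, scipy 1.17.1 and matplotlib 3.10.9.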

Additional observations from a re-analysis of the deposited data

Results flagged for a closer look

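Wls was read in 21 groups of 4 mice, and in 3 of them 1 mouse stood far from the other 3. Chance alone marks about 1 in 20 such groups. WT mouse 1 was high in T cells, at 68.0 CPM against 44.7 to 48.4 CPM in the other WT mice. It was also high in CD8 T cells, at 71.2 against 31.9 to 37.1 CPM. These values share cells, and the mouse had 40 T cells and 20 Wls UMIs in them, against 196 to 218 T cells in the other WT mice. CaMKK2 KO mouse 3 was low in NK cells, at 476 against 557 to 572 CPM. The causes were not tested, and none of these mice brought the genotypes to overlap.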

How the results depend on the processing

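No paired analysis was possible because the mice of the genotypes are different animals, and a shared hashtag number is only a name. Of 161 Wls log2 ratios under other settings, 154 kept their direction within the spread between mice, 6 moved and 1 turned. Subtraction of the B-cell CPM, not scaled to the UMIs per cell, gave 3.00 in T cells, 3.86 in CD8 T cells and 5.70 in NK cells. It gave -3.06 in macrophages, the ratio that turned, and no ratio where a mean was not above 0 (microglia, classical monocytes and DC2). In DC2 the WT mean of 20.0 CPM lay below the WT mean of 25.2 CPM in B cells. The migratory dendritic cell level gave 4.20 in NK and 2.98 in B cells, and outlying cells gave 1.17 in regulatory T cells. With each mouse left out, the ratio ranged over 2.54 to 2.81 in T, 3.00 to 3.47 in CD8, 1.42 to 1.70 in regulatory and 1.34 to 2.10 in CD4 T cells, 1.05 to 1.43 in macrophages, 0.15 to 0.33 in microglia, 1.37 to 1.98 in classical monocytes, 3.95 to 4.08 in NK cells, 1.89 to 2.75 in B cells and 4.01 to 4.46 in DC2.

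Counts of all called genes depended on the minimum. With at least 50 UMIs they were 201 in T, 137 in CD8 and 55 in regulatory T cells. With at least 1 UMI they were 566, 458 and 168, and 476 in macrophages, 332 in microglia, 305 in classical monocytes and 702 in NK cells. DESeq2 called 134 in CD8 T cells, 613 in macrophages, 100 in microglia and 325 in classical monocytes. High Scrublet scores kept gave 66 in T cells, clusters 188 in classical monocytes and outlying cells 456 in NK cells. With each mouse left out, the counts were 41 to 174 in T, 23 to 106 in CD8 and 11 to 22 in regulatory T cells, 117 to 360 in macrophages, 30 to 96 in microglia, 39 to 153 in classical monocytes and 79 to 810 in NK cells, the 810 without CaMKK2 KO mouse 3.

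With at least 1 UMI required, the Wnt list members called other than Wls were 1 of 60 in T cells (Kremen2) and 1 of 56 in CD8 T cells (Tcf7). They were 3 of 70 in macrophages, 2 of 56 in microglia and 3 of 62 in NK cells. The counts of all called genes given above for these classes and this minimum were out of 16162, 14768, 17864, 14886 and 15368 genes tested. DESeq2 called 4 of 34 in macrophages, 1 of 32 in classical monocytes and 1 of 26 in NK cells. Over all genes it called 375 higher and 238 lower of 9409 in macrophages and 170 and 155 of 7738 in classical monocytes. In NK cells it called 119 and 109 of 6627. In macrophages 2 of 41 were called with at least 50 UMIs, beside 128 higher and 193 lower of all 11259 genes. With outlying cells 2 of 34 were called (107 and 163 of 9717), and from clusters 2 of 34 (131 and 181 of 9437). The stricter class lead called 0 of 34 (90 and 127 of 9097). With each mouse left out the counts were 0 to 1 in macrophages, 0 to 3 in NK cells and 0 elsewhere. The 3 in NK cells, of 24 members, came without CaMKK2 KO mouse 3, where 593 higher and 217 lower of 5856 genes were called. The causes of these shifts were not tested. Few UMIs limit several classes: Wls rested on 5 WT UMIs in DC1, 4 in migratory dendritic cells, 0 in plasmacytoid dendritic cells and 13 in B cells.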

Other observations

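Several classes had too few cells or mice to be compared. Gamma-delta T cells, defined by at least 3 of 6 markers and no Cd4 or Cd8 UMI, had no Wls UMI in 7 WT cells of 2 mice. In CaMKK2 KO mice 1 to 4, the 3, 7, 4 and 4 such cells held 416, 520, 504 and 1120 CPM. Neutrophils held 4 Wls UMIs in 21 WT cells and 3 in 17 CaMKK2 KO cells, and basophils and mast cells held 1 in 10 and 8 in 11. In CaMKK2 KO NK cells, chosen after their values were seen, the genes that went most with Wls cell by cell were Klrb1c, which encodes NK1.1 (mean r 0.27), Malat1 (0.21) and Ptprc (0.21), and the lowest were the glycolytic gene Pgk1 and the ribosomal gene Rps24 (-0.22 each).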
